A study of Homo sapiens with 8 samples.

Results

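ORCA sites of early G1 were compared with those of mid G1 in U2OS, a human osteosarcoma cell line. Sites are peaks from chromatin immunoprecipitation and sequencing (ChIP-seq), a method in which DNA bound by a protein is pulled down and read. The 20946 peaks described here are the 10640 of the early list and the 10306 of the mid list that lie on chromosomes 1 to 22, out of 98024 peaks in the 4 lists of the series. A peak was called shared if it overlapped a peak of the other list by at least 1 bp, and stage-specific otherwise. By this rule 3461 early and 3354 mid peaks were shared, 7179 were early-specific and 6952 were mid-specific.

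The early group was U2OS cells labelled early-G1 and the mid group U2OS cells labelled mid-G1, grown in high-glucose medium with serum, fixed with formaldehyde and sonicated before the pull-down. Each stage was 1 sample of 1 cell line, with an input that was not analysed here, and no other treatment or genotype is named. Neither the way of synchronizing the cells nor the sequencing depth is given in the sources used here. Without replicates there is no spread between samples to set a difference between stages against, so the stages are described side by side and no test between them was run. Intervals printed here are 95% Wilson or Newcombe intervals for counting error, and neighbouring peaks are not independent.

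ORCA (gene name LRWD1) contains WD repeats, binds the origin recognition complex and helps hold it on chromatin. The origin recognition complex loads the replicative helicase during G1, a step called licensing that prepares origins for DNA replication in the following S phase. ORCA is known to favour heterochromatin and to recognise repressive histone methylation. Comparing early with mid G1 asks which of its sites are found at both times while licensing proceeds. Positions are in hg19, and the genes at them were not assigned, because an annotation of that build was not used here. Sequences at the peaks are not shown for the same reason.

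The lists overlapped to the same degree from both sides, as they largely must where the same pairs are counted in lists of similar length. In the early list 32.5% of peaks were shared (interval 31.6 to 33.4), and in the mid list 32.5% (interval 31.6 to 33.5). Counted in bases, the early peaks covered 8.57 Mb and the mid peaks 8.73 Mb, of which 3.17 Mb lay in both. Those common bases were 36.9% of the early and 36.3% of the mid bases, and 22.4% of the bases in either list. Shared early peaks held 4.03 Mb, close to the 4.54 Mb of the more numerous early-specific peaks. Shared and mid-specific peaks of the mid list held 4.21 and 4.52 Mb.

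Most overlaps were deep. The shared peaks formed 3865 overlapping pairs with a median overlap of 639 bp (quartiles 411 and 992 bp). In 83.2% of pairs at least 50% of the shorter peak was covered, and in 38.7% one peak lay wholly inside the other. Less than 10% of the shorter peak was covered in 170 pairs. The early peak lay inside the mid peak in 964 pairs and the mid peak inside the early one in 530. No pair had the same start and end. An early peak touched 2 or more mid peaks in 377 cases, with a maximum of 4, and a mid peak touched 2 or more early peaks in 439 cases, with a maximum of 6.

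In 2444 pairs each peak had the other as its only partner. In these 1-to-1 pairs the midpoints were a median of 140 bp apart (quartiles 48.4 and 320 bp), and in 41.9% they were within 100 bp. The early members had a median width of 828.5 bp and the mid members 884 bp. The mid peak was wider in 1420 pairs and the early peak in 1020, with a median ratio of mid to early width of 1.05 (quartiles 0.844 and 1.34). Across the pairs widths had a Spearman rho of 0.712. The pairs of 1 library each are not independent replicates, and the value is a description.

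In some places 1 broad peak of a stage faced several peaks of the other. The 5 with the most partners all lay near the start of chromosome 7. The mid peak at chr7:2695251-2705908, 10658 bp wide, overlapped 6 early peaks. The mid peak from 1512778 to 1521830 overlapped 5 early peaks, and one of those, from 1509469 to 1514374, overlapped 4 mid peaks itself. A mid peak from 1530419 to 1540400 also met 5 early peaks, and one from 1056315 to 1061083 met 4. The early peak from 1489919 to 1495132 met 4 mid peaks.

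Sharing was unequal among chromosomes and highest on chromosomes 7 and 8. On chromosome 7, 884 of 1603 early peaks (55.1%, interval 52.7 to 57.6) and 827 of 1524 mid peaks (54.3%, interval 51.8 to 56.8) were shared. On chromosome 8 the shares were 49.7% of 1298 early and 48.1% of 1278 mid peaks. These were the 2 chromosomes whose intervals lay above the share of the whole list, in both lists. The intervals of 12 chromosomes in the early and 14 in the mid list lay below it. The lowest shares were on chromosome 12, with 15.4% of 345 early (interval 11.9 to 19.5) and 16.8% of 315 mid peaks (interval 13.1 to 21.4). The order of chromosomes was similar in both lists, with a Spearman rho of 0.902 over 22 chromosomes, as it must largely be where the same pairs are counted from either side.

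**Figure D1:**
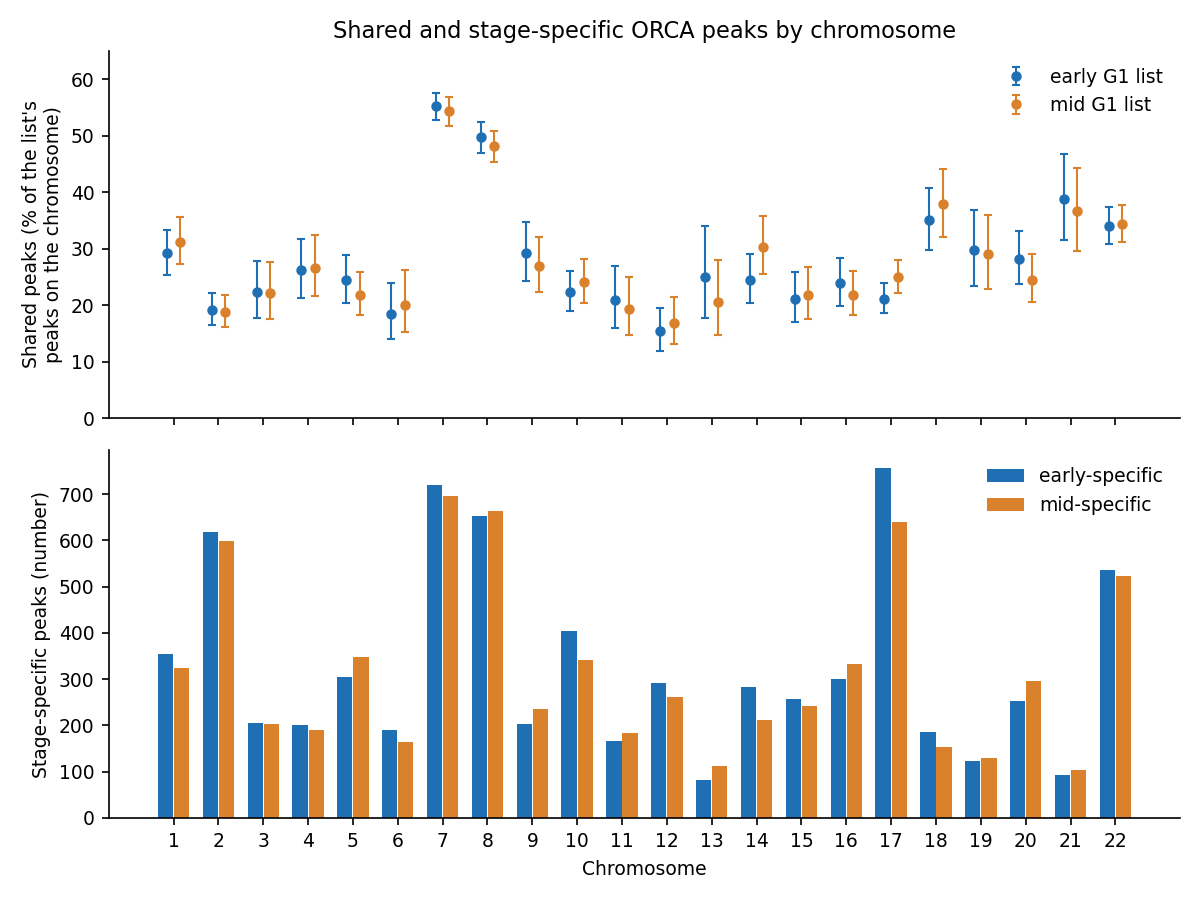
Shared peaks as a percentage of each list's peaks on a chromosome (top, points with 95% Wilson intervals) and the number of early-specific and mid-specific peaks (bottom, bars), for chromosomes 1 to 22. Chromosomes 7 and 8 stand above the rest in both lists, from 48.1% to 55.1%, and chromosome 17 has the most early-specific peaks, 757.

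Within chromosomes 7 and 8 the high share came from 1 end of each, where ORCA peaks are dense: chromosome 7 up to 7 Mb and the part of chromosome 8 beyond 140 Mb. These ends were defined from earlier results of the same lists. They held 19.8% of all early peaks and 19.7% of all mid peaks. They held 38.7% of shared early peaks against 10.7% of early-specific ones, and 37.4% against 11.2% in the mid list. At the end of chromosome 7, 64.9% of early peaks were shared, against 24.9% on the rest of that chromosome. At the end of chromosome 8 the share was 61.5%, against 23.4% on the rest. Without both ends the share was 24.9% of 8531 early peaks (interval 23.98 to 25.8) and 25.4% of 8275 mid peaks (interval 24.4 to 26.3). In such dense parts a peak has more peaks of the other list within reach, and how much of the overlap this accounts for was not tested.

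The stage-specific peaks were spread over chromosomes in nearly the same numbers. Early-specific peaks outnumbered mid-specific ones on 13 chromosomes and the reverse held on 9. Chromosome 17 had 757 early-specific against 639 mid-specific peaks, chromosome 14 had 284 against 211, and chromosome 10 had 404 against 341. In the other direction, chromosome 13 had 81 early-specific against 112 mid-specific peaks, chromosome 5 had 304 against 349, and chromosome 20 had 252 against 296. The ratio of mid-specific to early-specific peaks went from 0.743 on chromosome 14 to 1.38 on chromosome 13. Chromosome 7, with 719 and 697, and chromosome 8, with 653 and 663, were near balance.

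Ratios in small bins went farther from balance than those of whole chromosomes. In 1 Mb bins by peak midpoint, 375 bins held 10 or more stage-specific peaks. In 66 of them early-specific peaks were at least 2 times as many as mid-specific ones, and in 44 the reverse held. Counting error alone spreads ratios of such small counts, and whether these numbers of bins exceed it was not tested. Among the 5 bins with the largest excess in number for each stage, the early ones included 28 to 29 Mb of chromosome 22, with 36 early-specific against 9 mid-specific peaks, and 57 to 58 Mb of chromosome 17, with 35 against 9. A further bin of chromosome 17, 60 to 61 Mb, held 40 against 19. The mid ones included 0 to 1 Mb of chromosome 7, with 51 early-specific against 96 mid-specific peaks, and 50 to 51 Mb of chromosome 22, with 19 against 47. On chromosome 13, 114 to 115 Mb had 32 against 52. Dense bins of chromosomes 7 and 8 were on both sides of the balance: 5 to 6 Mb of chromosome 7 held 84 against 51, and 2 to 3 Mb held 79 against 55. On chromosome 8, 143 to 144 Mb held 70 against 93, and 145 to 146 Mb held 51 against 73. Each of these 10 bins also held shared peaks. Over the 1998 bins with a peak, early-specific and mid-specific counts had a Pearson r of 0.867 and a Spearman rho of 0.530, as a description of 2 libraries.

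Peaks within 5 Mb of the outermost peak of their chromosome, over the early, mid and MeDIP lists, made up 32.9% of the early and 36.8% of the mid list. They were 52.2% of shared early and 50.8% of shared mid peaks, 23.6% of early-specific and 30.0% of mid-specific peaks. In this outer zone 51.6% of early peaks were shared, and 37.9% when the dense ends of chromosomes 7 and 8 were left out, against 23.2% of early peaks farther in. For mid peaks the values were 44.99%, 31.0% and 25.3%. The outermost peaks stand in for the chromosome ends, since the lengths of the chromosomes were not used here. An outermost peak can lie far from the end of its chromosome, for example beside a centromere. The outer zone can therefore mix chromosome ends with other regions, and how far it does was not measured.

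Shared peaks were wide. Their median width was 907 bp in the early list (quartiles 611 and 1362 bp) and 963.5 bp in the mid list (quartiles 649 and 1477 bp). Early-specific peaks had a median of 519 bp (quartiles 431 and 701 bp) and mid-specific peaks 551 bp (quartiles 455 and 731 bp). The shared peaks had the larger median on all 22 chromosomes, in both lists. A wider peak has more room to meet another one, so part of this contrast follows from the rule itself.

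The share rose with width in the same way in both lists. Of early peaks under 500 bp, 13.6% were shared (513 of 3780), and of mid peaks under 500 bp also 13.6% (406 of 2994). From 500 to under 750 bp the shares were 24.97% and 20.7%, and from 750 to under 1000 bp 43.2% and 42.4%. From 1000 to under 1500 bp they were 60.8% and 57.4%, and from 1500 to under 3000 bp 78.3% and 79.9%. Of the peaks of at least 3000 bp, 134 of 151 early (88.7%, interval 82.7 to 92.9) and 172 of 184 mid peaks (93.5%, interval 88.9 to 96.2) were shared. Broad peaks found at a single stage were therefore few, 17 in early and 12 in mid G1.

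**Figure D2:**
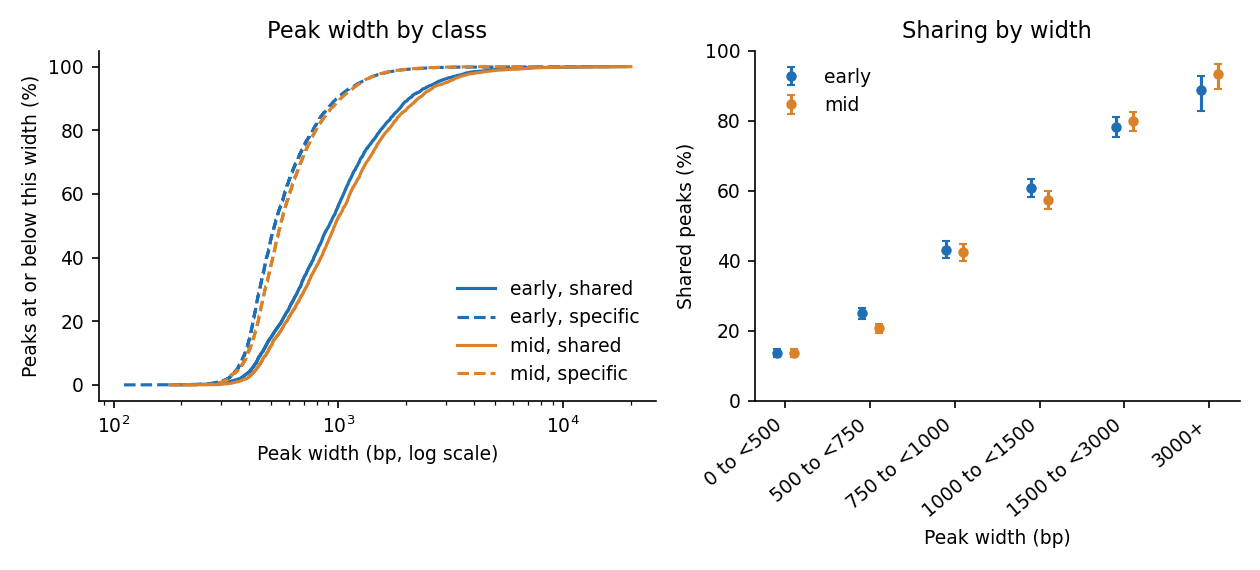
Left, cumulative percentage of peaks by width (bp, log scale) for shared (solid) and stage-specific (dashed) peaks of the early and mid lists; right, percentage of peaks shared by width class, with 95% Wilson intervals. Shared peaks lie to the right of stage-specific ones, with medians of 907 and 963.5 bp against 519 and 551 bp, and sharing goes from 13.6% under 500 bp to 88.7% and 93.5% at 3000 bp and over.

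Shared peaks also stood higher in their lists. The score in the deposited files is the caller's own value per peak, at least 50 and at most 3100 in both lists, and was used to order peaks within a list and, with a minimum of 100, to define the runs of narrow peaks described below. Rank is given as the percentage of the list from the top. The median rank of shared peaks was 24.2% in the early and 25.5% in the mid list, and that of early-specific and mid-specific peaks 59.5% and 59.2%. Each list was divided into 5 equal parts by score. In the highest-scoring part of the mid list 69.9% of 2061 peaks were shared (interval 67.9 to 71.9), and in the following parts 33.7%, 24.99%, 18.4% and 15.7%. The early list ran from 71.1% to 15.99%. Scores and widths go together, since the median width fell from 1253 to 465 bp over the same parts of the mid list.

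Both width and score marked the shared peaks when the other was held. Among mid peaks of 500 to under 750 bp, 50.2% of 251 in the highest-scoring part were shared, against 18.3% of 589 in the lowest. Among those of 1000 to under 1500 bp it was 65.2% of 601 against 44.2% of 95. Early peaks of 1000 to under 1500 bp gave 72.5% of 604 against 51.2% of 82. Within the highest-scoring part of the early list, sharing went from 45.5% of 165 peaks under 500 bp to 92.8% of 138 peaks of at least 3000 bp. The 56 mid peaks under 500 bp in the highest-scoring part departed from this order, with 71.4% shared (interval 58.5 to 81.6).

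At the very top the lists differed. Of the 100 mid peaks with the highest scores, 97 overlapped some early peak (97.0%, interval 91.5 to 98.97), whereas 77 of the first 100 early peaks did so with a mid peak (interval 67.8 to 84.2). Among the first 250 it was 241 mid and 202 early peaks, and among the first 500 it was 463 and 426. Among the first 1000 the counts were near each other, 844 and 833. With both lists reduced to their first 100 peaks, 54 early peaks overlapped a mid peak, with 500 peaks it was 273, with 2000 it was 968 and with 8000 it was 2775. The share of early peaks in lists of equal length was thus 54.0%, 54.6%, 48.4% and 34.7%.

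The strongest early-specific peaks came largely from runs of narrow peaks. A run was 4 or more peaks with a score of at least 100 and a width under 1 kb, with neighbours at most 20 kb apart, a definition taken from earlier results of these lists. The same minimum score falls at different ranks in the lists: the lowest-ranked run peak stood at 15.8% from the top in the early and at 23.7% in the mid list. Runs held 83 early peaks, 0.78% of the list, in 10 runs, and 39 mid peaks, 0.378%, in 9 runs. Of the 83 early peaks, 63 were early-specific. Of the 39 mid peaks, 6 were mid-specific. Among the 20 early-specific peaks with the best rank 15 were in runs, among the first 50 it was 36 and among the first 100 it was 51. The same counts for mid-specific peaks were 0, 0 and 0.

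In 7 of the 10 early runs there was no mid peak anywhere in the span. The run at chr6:88311362-88376985 had 12 narrow peaks with a median width of 306 bp and scores up to 642, and the nearest mid peak was 4958668 bp away. The run at chr6:36463445-36508137 had 10 with a median of 431.5 bp, and the run at chr16:74657727-74695458 had 10 with a median of 462 bp and a top score of 3100. At chr12:27450495-27475407 there were 9, with a median of 379 bp. At chr17:40265502-40273496 there were 6, with a mid peak 956 bp beyond the run, at chr6:31852056-31864636 there were 5 and at chr2:201784826-201800659 there were 4. These 7 runs together held 56 early-specific peaks.

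The other 3 early runs recurred in mid G1. At chr1:52838686-52868081, 9 of 15 early run peaks were shared, and mid G1 had a run of its own there from 52838831 to 52862182. Early scores in that run were 640 to 3100 and all ranked within 0.883% of the top. The 5 peaks of the mid run had scores of 100 to 177, where the definition sets the lower end, and 8 mid peaks lay in that span in all. At chr16:46723464-46731713, 6 of 7 early run peaks were shared, with a mid run from 46724842 to 46731631 whose top score was 1129.65. At chr7:158123665-158153571 all 5 were shared. Where these runs lie relative to exons was not tested and signal at them in the inputs was not analysed, so it is not known whether the run peaks, among them 15 of the 20 early-specific peaks of best rank, mark ORCA binding.

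Outside runs, the early-specific peak with the best rank was at chr11:79698445-79700752, 2308 bp wide with a score of 2352.69. It stood alone: the nearest mid peak was 637 kb away and the nearest early peak 487 kb away. The next was at chr19:36776407-36783420, 7014 bp wide, with a score of 1446.32. A mid-specific peak lay 14.8 kb from it, from 36759568 to 36761570, and was itself second in rank among the mid-specific peaks, so that both stages had a strong peak in this stretch without overlapping. The others were at chr10:135493577-135496855, and inside the spans of 2 of the runs, at chr6:31855415-31856685 and at chr17:40268887-40270549. These 2 were too wide, at 1271 and 1663 bp, to count as run peaks.

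The strongest mid-specific peaks ranked lower in their list than the early-specific ones in theirs. The first was at chr7:157724954-157726878, 1925 bp wide with a score of 1260.9, and ranked 43 in the mid list, while the first early-specific peak, at chr16:74694642-74695458, shared the top rank. The nearest early peak was 137 kb away. After the peak on chromosome 19 named above came chr2:114408182-114411336, 3155 bp wide, with an early peak 14.8 kb away. The peak at chr10:134201007-134203257 followed, with an early peak at 22.5 kb, and chr19:246544-247590, with one at 46.0 kb. Of these 5, those on chromosome 10 and on chromosome 19 from 36759568 overlapped a MeDIP peak.

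Peaks at the top of both lists overlapped over most of the shorter peak. The 5 pairs with the best mean rank each had the highest score, 3100, at both stages. On chromosome 1 the early peak from 236260128 to 236260911 lay inside the mid peak from 236259941 to 236261072. On chromosome 16 the early peak from 90060737 to 90062936 lay inside the mid peak from 90060541 to 90063516. On chromosome 21 the peaks ran from 9825389 to 9827720 and from 9825384 to 9827761, and those of chromosome 6 from 107389730 to 107392236 and from 107389812 to 107392259. On chromosome 18 the mid peak from 94389 to 97876 overlapped 3 early peaks, one of them the early peak from 96089 to 98059.

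The ranks of paired peaks scattered widely. Over the 2444 1-to-1 pairs the ranks had a Spearman rho of 0.427, and the median difference was 17.6 percentage points of the list. In 34.5% of pairs the ranks were within 10 points and in 14.6% they were more than 50 points apart, 186 of them better in early and 172 better in mid G1. Of 539 pairs with the early peak in the top 10% of its list, 282 had the mid peak in the top 10% as well. The median mid rank of the 539 was 8.68%. Over all 2444 pairs 516 had the mid peak in the top 10%, and the median mid rank was 29.3%.

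The most extreme differences in rank were mostly small fragments facing a broad peak. On chromosome 8 the early peak from 143690470 to 143693545, with a score of 447.8, met a mid peak of 443 bp with a score of 51.3 among 3 mid peaks. On chromosome 7 the mid peak from 1486639 to 1491101, with a score of 454.62, met an early peak of 682 bp with a score of 50.31 among 3 early peaks. Of the 5 pairs most in favour of early G1, those on chromosome 2, from 87583821 to 87585916, and chromosome 10, from 43247500 to 43249710, were 1-to-1 pairs. The early ranks there were 6.05% and 4.53% and the mid ranks 98.2% and 96.5%. All 5 pairs most in favour of mid G1 had 2 or 3 early peaks on the mid peak.

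**Figure D3:**
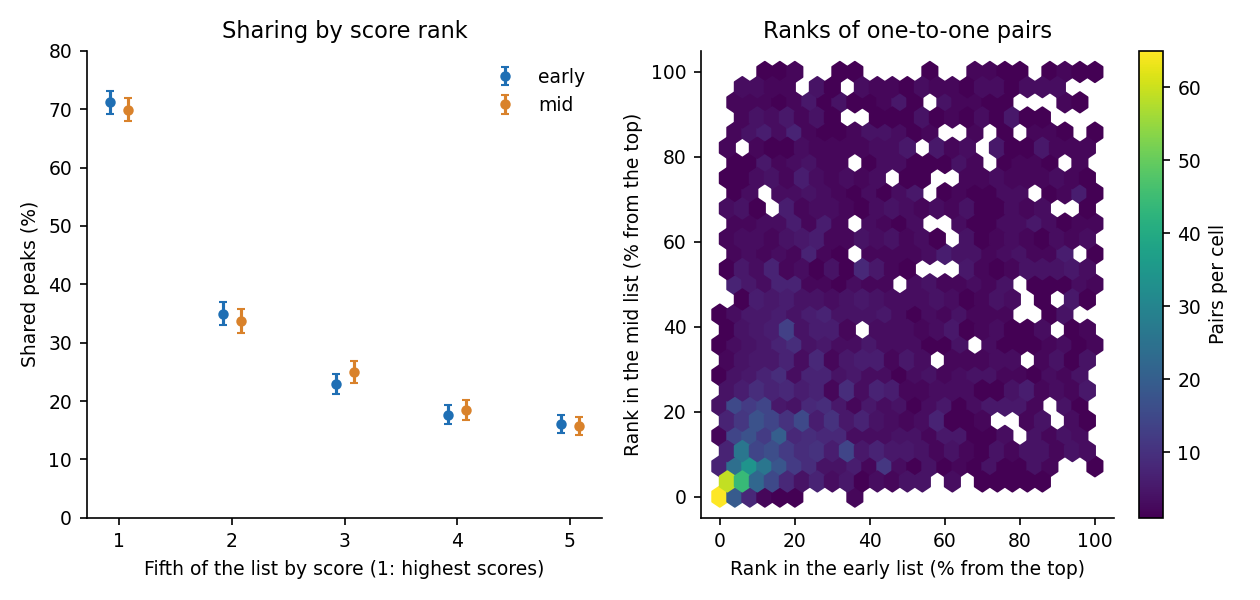
Left, percentage of peaks shared in each of 5 equal parts of the early and mid lists by score, with 95% Wilson intervals; right, density of the 2444 1-to-1 pairs by rank in the early list (horizontal) and in the mid list (vertical), as percent from the top. Sharing falls from 71.1% and 69.9% to 15.99% and 15.7%, and pairs crowd at the lower left, where both ranks are high, with a wide scatter elsewhere.

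The distance of stage-specific peaks to ORCA at the other stage ranged widely and was similar from both sides. The median distance from an early-specific peak to the nearest mid peak was 27.3 kb (quartiles 4.62 and 118 kb), and from a mid-specific peak to the nearest early peak 21.5 kb (quartiles 3.76 and 107 kb). Within 1 kb of a peak of the other list lay 783 early-specific peaks (10.9%) and 848 mid-specific peaks (12.2%). Between 1 and 10 kb there were 1703 and 1762, between 10 and 100 kb 2696 and 2529, and between 100 and 1000 kb 1791 and 1628. Beyond 1000 kb there were 206 early-specific (2.87%) and 185 mid-specific peaks (2.66%).

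Peaks near the other list were wider and ranked higher. Early-specific peaks within 1 kb of a mid peak had a median width of 713 bp and a median rank of 48.0%, against 404.5 bp and 63.8% beyond 1000 kb. The mid-specific values were 715.5 bp and 47.6% against 453 bp and 64.1%. The neighbour was itself a shared mid peak for 45.7% of early-specific peaks within 1 kb, for 14.4% of those at 100 to 1000 kb and for 27.2% of those beyond. For mid-specific peaks the values were 48.6%, 16.9% and 18.9%. Shared peaks were 32.5% of each list.

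**Figure D4:**
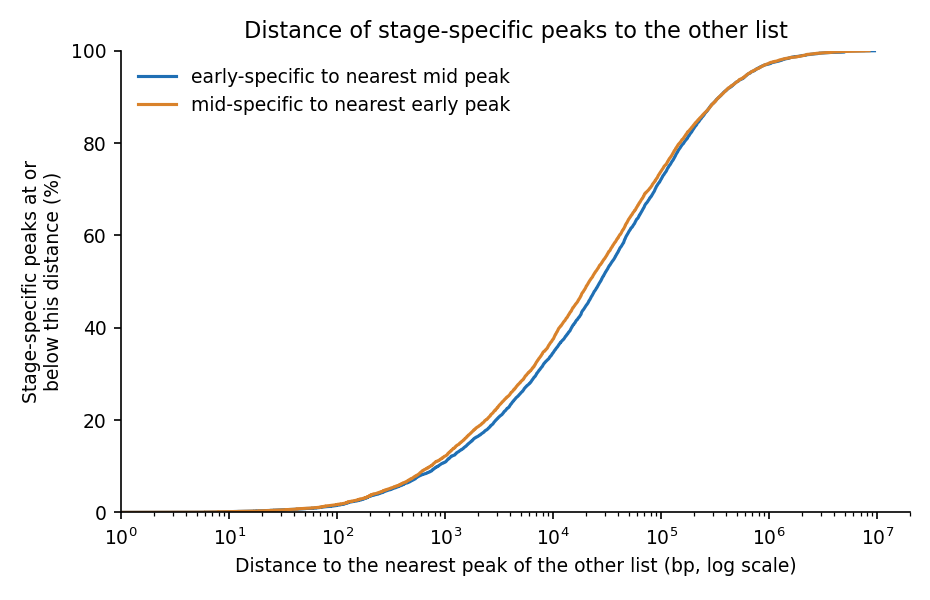
Cumulative percentage of the 7179 early-specific and 6952 mid-specific peaks by distance to the nearest peak of the other list (bp, log scale). The curves are nearly the same, with the mid-specific one slightly to the left, at medians of 21.5 kb against 27.3 kb.

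The most isolated stage-specific peaks were outside the top 20% of their lists by score, and those of mid G1 all lay on chromosome 13. The early-specific peak farthest from any mid peak was at chr13:79200886-79201242, 9.43 Mb away. The next 3 were on chromosome 3, from 64682016 to 64682362, from 64461856 to 64462246 and from 66115056 to 66115452, at 7.04 to 8.06 Mb, and the last at chr18:39354958-39355339, at 5.19 Mb. The farthest mid-specific peaks lay at chr13:19645614-19646443, at 8.39 Mb, from 20353891 to 20354543, from 20370535 to 20371740, from 49952706 to 49953209 and from 50078485 to 50078864. Their distances were 7.65 to 8.39 Mb and their widths 380 to 1206 bp. Chromosome 13 also had the fewest peaks of all, 108 early and 141 mid.

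A readout that the rule did not use is methylated DNA immunoprecipitation and sequencing (MeDIP-seq), which pulls down DNA rich in methylated CpG. It came from 1 U2OS sample with no G1 stage in its labels, and its list held 73054 peaks on the same chromosomes. Over the whole lists 35.3% of early and 48.6% of mid peaks overlapped a MeDIP peak. Among shared peaks it was 59.9% of early (interval 58.3 to 61.5) and 59.7% of mid peaks (interval 58.0 to 61.4), which are by the rule the same places counted from either side and so must be close. Among stage-specific peaks, 23.4% of early-specific (interval 22.4 to 24.4) and 43.3% of mid-specific peaks (interval 42.1 to 44.5) had a MeDIP peak. The difference was 19.9 percentage points (interval 18.4 to 21.4). The 1-to-1 pairs had a median of 66.1% of their joint span in common. Of these pairs 1246 had a MeDIP peak at both members, 1120 at neither, 28 at the early and 50 at the mid member alone.

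The MeDIP difference between stage-specific peaks was seen on all 22 chromosomes and was smallest on chromosome 13, where 66.7% of early-specific and 69.6% of mid-specific peaks had a MeDIP peak. On chromosome 17 the values were 29.9% and 57.4%, and on chromosome 4 they were 7.50% and 32.6%. By width it was largest under 500 bp, 18.1% against 39.5%, and was 37.9% against 48.8% at 1000 to under 1500 bp. At 3000 bp and over the order turned, with 11 of 17 early-specific and 4 of 12 mid-specific peaks, and the interval of the difference, -57.9 to 4.82 percentage points, included 0. By score it was 36.8% against 63.5% in the highest-scoring part of each list and 19.6% against 33.7% in the lowest. In the dense ends of chromosomes 7 and 8 it was 44.9% against 53.6%, and elsewhere 20.8% against 41.99%. Each stage was 1 library, so stage and library cannot be told apart.

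MeDIP overlap fell with distance from the other stage, more steeply for early-specific peaks. Within 1 kb of a mid peak 56.4% of early-specific peaks had a MeDIP peak, and the share was 36.2% at 1 to 10 kb, 16.4% at 10 to 100 kb, 9.55% at 100 to 1000 kb and 3.40% beyond. For mid-specific peaks it was 61.6%, 51.5%, 39.9%, 32.4% and 22.2% over the same distances. The dense ends of chromosomes 7 and 8 held 38.6% of early-specific and 39.5% of mid-specific peaks within 1 kb. At 10 to 100 kb they held 2.82% and 2.93%, and farther out 0%. Median width also fell with distance, from 713 to 404.5 bp in early-specific and from 715.5 to 453 bp in mid-specific peaks. How much of the fall in MeDIP overlap goes with these ends or with width was not tested. In the mid list, narrow peaks had no excess of MeDIP overlap when shared: under 500 bp it was 36.5% of shared (interval 31.9 to 41.2) and 39.5% of mid-specific peaks (interval 37.7 to 41.4). In the early list the same class gave 41.5% of shared and 18.1% of early-specific peaks. At 1500 to under 3000 bp shared peaks were above stage-specific ones in both lists, 74.2% against 39.02% in early and 75.3% against 50.6% in mid G1.

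**Figure D5:**
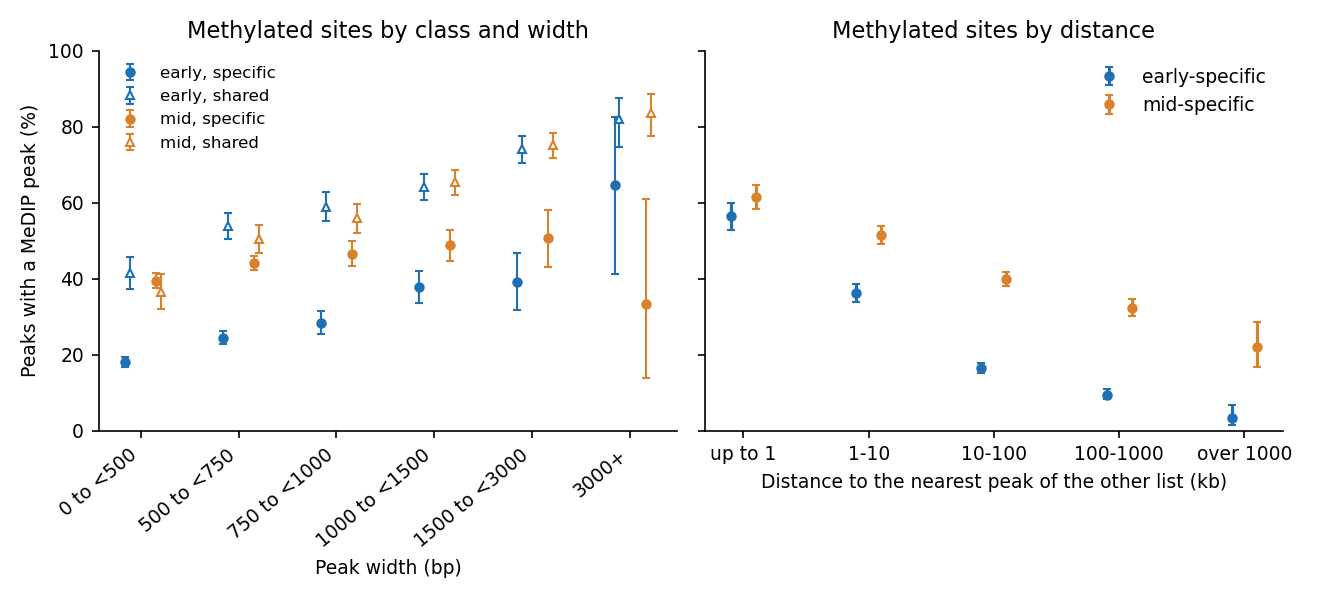
Percentage of ORCA peaks with a MeDIP peak (95% Wilson intervals), by width class for stage-specific (filled circles) and shared (open triangles) peaks of both lists (left) and by distance to the other list for stage-specific peaks (right). Mid-specific peaks lie above early-specific ones in every width class under 3000 bp and at every distance, from 61.6% against 56.4% within 1 kb to 22.2% against 3.40% beyond 1000 kb.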

How the data were processed

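For each immunoprecipitated sample the authors deposited a list of peaks with chromosome, start, end, peak name and a score. The submitters' processing notes name Trimmomatic, Bowtie 0.12.7 and 2 names of 1 assembly, GRCh37 and hg19. The peaks are named as MACS names them, per the files. Caller version, settings, control and number of reads are not given in the sources used here. A deeper library or a looser setting gives more peaks, so list length and sharing depend on both. The score was taken as the caller's own.

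The early and mid lists were used on chromosomes 1 to 22, which left 10640 of 10740 and 10306 of 10382 peaks, and the MeDIP list served as an independent readout. The late list and the 4 inputs were not used. Distance is the gap between the nearest edges, and starts are printed from 1. Overlap counts equalled those of bedtools 2.31.1, and the code was checked on simulated lists. Software was Python 3.11.15 with statsmodels 0.14.6, scipy 1.17.1, pandas 2.3.3, matplotlib 3.10.9 and numpy 2.4.6.

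Named regions were, with ties taken by position, the 5 pairs of best mean rank, of largest rank difference each way and of most partners, and the 5 stage-specific peaks per list of best rank, of best rank outside runs and farthest from the other list. They also included the 5 bins of 1 Mb with the largest excess per stage and the chromosomes of highest and lowest share. Chromosomes and bins beyond these were named after their values were seen. The members, the dense ends, the runs and these rules were chosen with earlier results of these data known. Planned gene and sequence lookups were not run, since an hg19 annotation and genome were not used here.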

Additional observations from a re-analysis of the deposited data

How the results depend on the processing

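Each of the 14 summary values was recomputed under 8 alternatives, and 1 more was added after seeing the data. With 1 sample per stage no replicate could be left out. No paired analysis was possible because each stage is 1 sample and no test was run. Of 81 values other than widths, 42 stayed within the interval of the reported value or, for counts, within 1.5 times it. These included all values with the early list reduced by score to the mid length, with all sequence names and without runs of narrow peaks. They also included the early-specific MeDIP share weighted to mid-specific widths, 24.1%, the added alternative. Of 32 median widths, 17 moved outside their interval. The cause of the movements below was not tested unless the setting itself removes peaks or changes the overlap rule. Requiring 50% of the shorter peak gave sharing of 29.2% of early and 29.3% of mid peaks and median distances of 23608 and 18602 bp. Sharing and distance fall by construction here, since pairs with smaller overlaps join the stage-specific class. This setting also required 50% of the shorter peak for overlap with a MeDIP peak. Its MeDIP shares were 20.2% of early-specific, 39.7% of mid-specific, 52.4% of shared early and 52.4% of shared mid peaks. Counting gaps of up to 1 kb as shared gave 39.9% and 40.8% and distances of 37589 and 32083 bp. Both rise by construction, since peaks within 1 kb of the other list leave the stage-specific class. MeDIP overlap stayed at 1 bp there, and the MeDIP shares were 19.4% of early-specific and 40.7% of mid-specific peaks. The part of each list at or above its median score, by construction with fewer peaks, had 3273 early-specific and 3181 mid-specific peaks, sharing of 38.5% and 38.3%, distances of 30949 and 30425 bp, and MeDIP shares of 31.1%, 52.9%, 66.2% and 66.1% in the same order as above. Without the widest 5% of peaks sharing was 26.3% and 26.9%, the early-specific distance 25228 bp and the MeDIP shares 25.8%, 44.5%, 54.3% and 54.4%. Without the dense ends of chromosomes 7 and 8 sharing was 24.9% and 25.4%, the distances 37299 and 30638 bp, and the MeDIP shares 20.8%, 41.99%, 48.9% and 49.6%. Mid-specific minus early-specific MeDIP share stayed between 18.7 and 21.8 percentage points under these 8 alternatives, and shared peaks kept the larger median width in both lists. Read depth was not given, so whether a stage-specific peak was missed at the other stage for lack of reads cannot be told apart from a difference in binding.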

Other observations

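Shared peaks had close neighbours in their own list. The nearest peak of the same list was a median of 1280 bp from a shared early peak and 1395 bp from a shared mid peak, against 21607 bp from an early-specific and 16889 bp from a mid-specific peak. Within 10 kb of another peak of their own list lay 73.3% of shared early and 73.0% of shared mid peaks, against 38.3% of early-specific and 43.3% of mid-specific ones.

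Of the highest-scoring of 5 equal parts of each list, 614 early and 620 mid peaks were stage-specific. Their medians were 884.5 and 977.5 bp in width and 7506.5 and 8979.5 bp in distance to the other list. More than 100 kb from it lay 104 of these early peaks (16.9%) and 93 of these mid peaks (15%). Such distances were more common among all stage-specific peaks. At 100 to 1000 kb alone lay 24.9% of all early-specific and 23.4% of all mid-specific peaks. Run peaks made up 63 of the 614 early and 5 of the 620 mid peaks. Whether run peaks mark ORCA binding is not known.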
